A study of Mus musculus with 9 samples.

Results

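Binding of HOXA13 and HOXD13 in the mouse distal forelimb was described around 9 genes of the retinoic acid pathway. The genes were Aldh1a2 and Aldh1a3 (synthesis), Cyp26b1 and Cyp26a1 (degradation), Crabp1 and Crabp2 (intracellular binding) and Rara, Rarb and Rarg (nuclear receptors). Each gene was taken with its GENCODE gene body and 100 kb on either side in the mm10 build, and every interval of the 9 deposited peak lists with a summit in that window was kept. Intervals of different lists that shared at least 1 bp were merged into 1 site. The 9 windows held 345 of the 206225 merged sites of the whole series. A window is a rule of distance, so a site in it is not thereby a site of that gene, and 1 to 13 other protein-coding genes lay in or across each window.

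The lists came from CUT&RUN, in which an antibody tethers a nuclease that cuts out the DNA around the bound protein. Wild type embryos of the B6CBAF1 background at E12.5 gave 3 libraries with an antibody against HOXA13 and 3 with one against HOXD13. The other 3 libraries came from embryos homozygous for line 542 (II1TDOM), in which a copy of the distal limb enhancer II1, an HBB promoter and a lacZ reporter were inserted on chromosome 2, in the T-DOM landscape next to the Hoxd genes. Of these, 2 libraries were made with HOXA13 antibody at E12.5 and 1 with HOXD13 antibody. The title of that last library gives E11.5, while the collection note gives 1 day for all embryos, so its stage was taken as labelled and it entered no test. The third wild type HOXD13 library is labelled as a reanalysis of an earlier sample. The embryos were pooled for each library, and peak lists hold no expression values against which the tissue label could be checked. None of the 9 genes lies on the chromosome that carries the insertion.

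Retinoic acid is made from retinaldehyde by the ALDH1A enzymes and broken down by the CYP26 enzymes. CRABP proteins carry it in the cytoplasm, and the RAR receptors bind it in the nucleus, where they sit with RXR partners on direct repeats of a short half-site. In the limb, CYP26B1 keeps the outgrowing bud low in retinoic acid, and Aldh1a2 is switched on between the digits, where retinoic acid takes part in the death of the interdigital cells. Aldh1a2 has been described as a direct target of HOXA13 in that tissue. HOXA13 and HOXD13 are paralogous homeodomain proteins of the distal limb and bind closely similar A/T-rich sites.

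The lists held 23939 to 117719 intervals, with the shortest list from wild type HOXD13 replicate 1 and the longest from the 542 HOXD13 library. The depth recovered from the background of each list ran from 36900000 to 65500000 read ends. Longer lists came with deeper libraries in part. A weak site missing from a short list was not read as absent, and whether depth limited the calls was not tested. Fold enrichment below is the pileup of read ends at the main summit of an interval over the local background, and its percentile is the share of the same list's intervals at or below it, so that sites were ranked only within a list.

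Of the 345 sites, 18 (5.22%) were called in all 6 wild type lists, against 6.90% of all 187033 merged sites outside chromosome 2. The same 18 sites were also called in the 3 lists of line 542, hence in all 9 lists, against a background of 6.40%. At the other end, 174 sites (50.4%) were called in 1 list alone, against 50.0%. Both shares were thus close to those of the genome, and 65 of the single calls came from the long 542 HOXD13 list. In the wild type, 187 sites were called with HOXA13 and 161 with HOXD13 in at least 1 list. Another 106 sites had no wild type call. No shares over all sites stand beside the counts of 65, 187, 161 and 106, and the lists differed in length. The antibodies were therefore not compared by them.

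**Figure D1:**
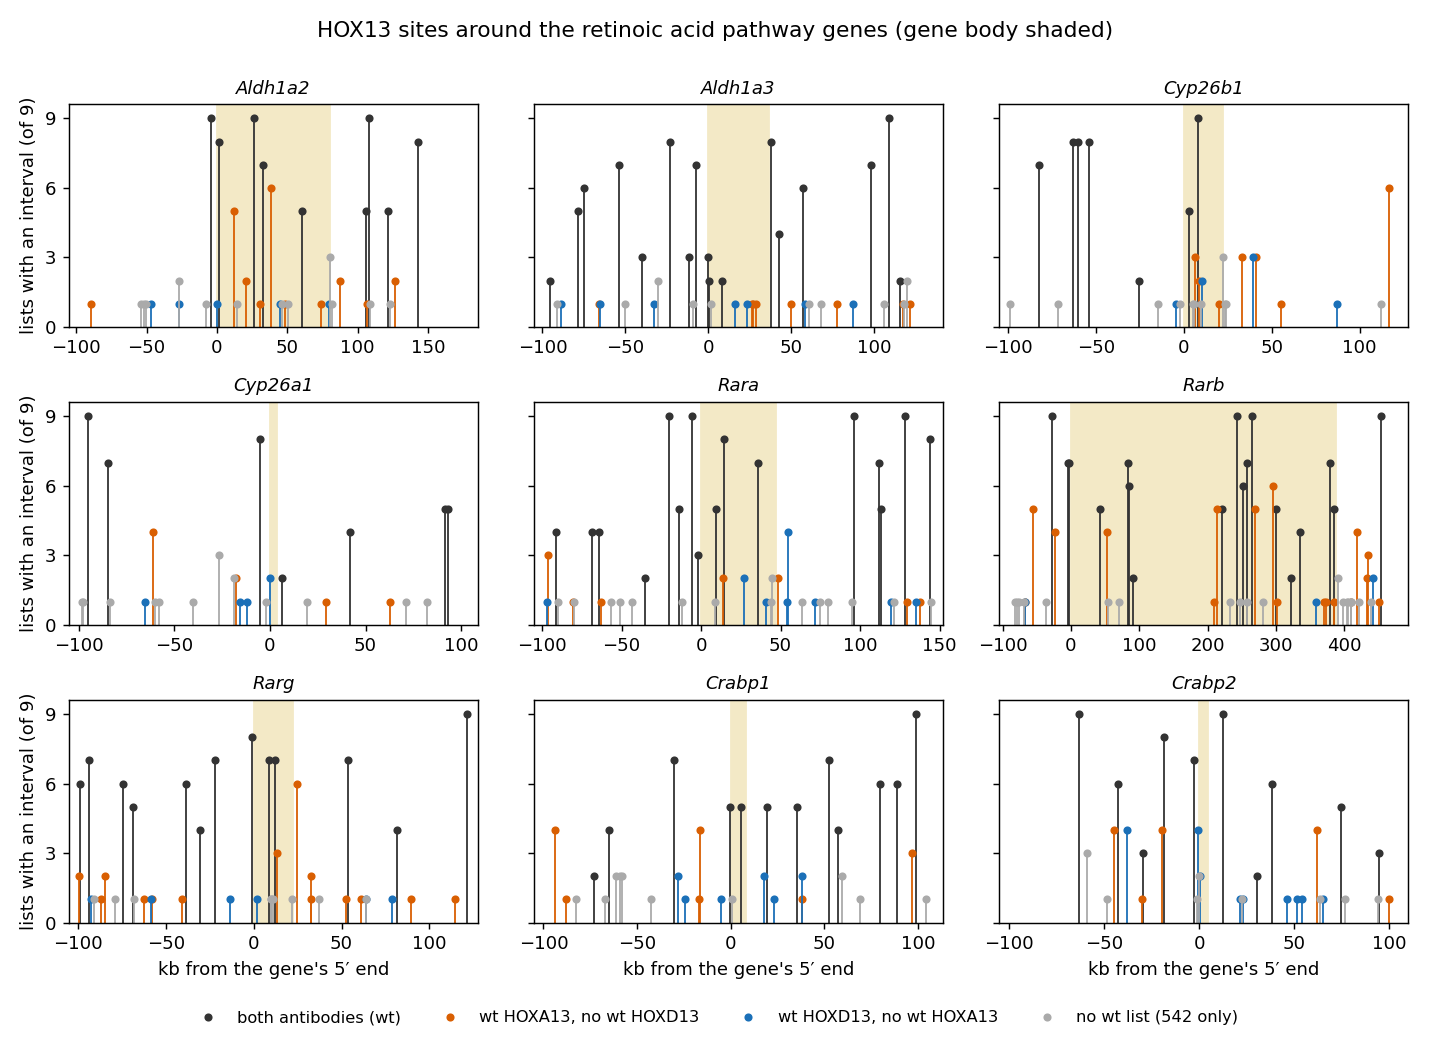
Sites in the window of each gene by distance from the 5′ end of its annotated body in kb (x axis, along transcription; body shaded) and by the number of lists with an interval there (y axis, of 9). Colour gives the wild type lists that called the site; the 18 points at 9 lists lie in introns, at promoters of neighbours and between genes and, near Rara, in an exon of Cdc6, and 1 of them lies at a member's own promoter, that of Rarb.

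Aldh1a2, the main retinaldehyde dehydrogenase of the early embryo, had 36 sites, of which 3 were called in all 9 lists. None of these 3 was at the promoter. The strongest lay in an intron 26.5 kb downstream of the start, at chr9:71241246-71242813. Its fold enrichment was 14.2, 13.3 and 5.13 in the 3 wild type HOXA13 libraries and 7.83, 10.3 and 5.31 in the 3 wild type HOXD13 libraries. It was 10.2 and 10.4 in the 542 HOXA13 libraries and 7.53 in the 542 HOXD13 library. The main summit of that last list lay at position 71241701, against 71242310 in wild type HOXA13 replicate 1, so 7.53 belongs to another summit of the site. Between 72 and 563 read ends covered the main summit of the site in each library, and the site ranked at the 88.7th percentile or above in each of the wild type lists. The percentiles of both antibodies overlapped, and the main summits of the 6 wild type lists lay within 121 bp of each other.

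The second site lay 27.4 kb past the 3′ end of Aldh1a2, at chr9:71323151-71323865. Its percentile was 97.2, 98.5 and 91.5 with HOXA13 and 68.7, 91.2 and 63.2 with HOXD13 in the wild type. Every HOXA13 library thus ranked it above every HOXD13 library, though 91.5 and 91.2 were close. The fold enrichments overlapped, with 5.46 in HOXA13 replicate 3 and 7.06 in HOXD13 replicate 2. The third lay 4.3 kb upstream of the start, at chr9:71210909-71212495. There the percentiles were 79.5, 81.1 and 85.4 with HOXA13 and 14.05, 56.2 and 54.2 with HOXD13, again without overlap. The 542 HOXA13 libraries ranked this upstream site at 88.9 and 92.2, above the 3 wild type HOXA13 libraries. The sequences of these sites are given because Aldh1a2 is the gene of the pathway with a known link to HOXA13. Each runs 60 bp to either side of the reference summit on the plus strand of mm10, and capitals mark the hexamers AATAAA or CGTAAA on either strand, extended to 8 bases where they form the octamers CCAATAAA, CTAATAAA, CCCGTAAA or CTCGTAAA, which contain them.
Aldh1a2 upstream, chr9:71211413-71211533: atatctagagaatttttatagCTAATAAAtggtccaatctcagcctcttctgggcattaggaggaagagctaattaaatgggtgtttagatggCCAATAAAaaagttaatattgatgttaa
Aldh1a2 intron, chr9:71242250-71242370: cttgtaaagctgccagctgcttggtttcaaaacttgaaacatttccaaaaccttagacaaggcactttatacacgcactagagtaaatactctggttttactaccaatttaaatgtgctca
Aldh1a2 downstream, chr9:71323566-71323686: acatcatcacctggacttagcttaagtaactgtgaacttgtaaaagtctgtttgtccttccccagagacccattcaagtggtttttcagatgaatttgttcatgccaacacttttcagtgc

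The upstream site held 2 octamers on the plus strand, CTAATAAA and CCAATAAA, one on each side of its summit. The intronic and downstream windows, which had the higher ranks, held neither octamer nor hexamer. Of all sites in all 6 wild type lists, 9.89% had an octamer and 32.7% a hexamer in a window of this length, and of the 18 sites around the pathway genes 2 and 5 did.

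At the Aldh1a2 promoter itself, a site 7 bp upstream of the transcript start was called in 1 list alone, wild type HOXD13 replicate 2, with a fold enrichment of 2.74 at the 28.7th percentile. A further intronic site 1.6 kb downstream of the start was called in 8 lists, the exception being wild type HOXD13 replicate 3. Another, 38.8 kb downstream of the start at chr9:71253905-71255210, was called in all 3 wild type HOXA13 lists and no wild type HOXD13 list. Its fold enrichment was 5.93, 4.14 and 3.56 in the wild type HOXA13 libraries, 5.72 and 5.69 in the 542 HOXA13 libraries and 4.36 in the 542 HOXD13 library. In all, 15 of the 36 sites were intronic, 12 intergenic and 1 exonic, 1 was the promoter site above, and the others lay in introns or at promoters of neighbouring genes.

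Aldh1a3, a second retinaldehyde dehydrogenase, had 42 sites, and 1 of them was in all 9 lists. That site, at chr7:66317698-66318830, lay in an intron of Lrrk1, 72.5 kb beyond the 3′ end of Aldh1a3. In the wild type it reached 12.3, 8.74 and 4.76 with HOXA13 and 3.51, 7.97 and 5.52 with HOXD13 in fold enrichment. The percentiles of both antibodies overlapped. The promoter region of Aldh1a3 held 3 weak sites, which together were called in 4 lists at fold enrichments of 2.37 to 3.62. Closer to the gene, intergenic sites 7.1 and 23.0 kb upstream were called in 7 and 8 lists.
Aldh1a3 lead site, chr7:66318326-66318446: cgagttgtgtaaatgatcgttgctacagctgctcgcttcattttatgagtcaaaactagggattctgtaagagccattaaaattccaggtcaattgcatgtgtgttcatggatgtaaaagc

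Cyp26b1, the degrading enzyme of the limb bud, had 29 sites with 1 in all 9 lists. This site lay in an intron of Cyp26b1, 1744 bp downstream of the nearest transcript start. Its fold enrichment was 6.61, 4.53 and 2.75 with HOXA13 and 4.63, 5.82 and 3.83 with HOXD13 in the wild type, 4.83 and 3.99 in the 542 HOXA13 libraries and 2.46 in the 542 HOXD13 library. It was thus of middling rank, with a median percentile of 68.4 over the wild type lists. Upstream of the gene, 4 sites in introns of the neighbour Exoc6b, 53.9 to 82.2 kb from the Cyp26b1 start, were called in 7 or 8 lists, and the lists that lacked them were wild type HOXD13 replicates 1 and 3. The promoter was called weakly in 3 lists. A distal site 110.5 kb downstream of the nearest start, at chr6:84476499-84477625, was called in the 3 wild type HOXA13 lists and in no wild type HOXD13 list.

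Cyp26a1, the paralogue known as a direct target of retinoic acid itself, had 27 sites. The 1 site in all 9 lists lay far upstream, 95.2 kb from the start in an intron of Exoc6, at chr19:37602277-37603264. Fold enrichment there reached 9.98, 6.70 and 7.28 with HOXA13 and 4.68, 5.97 and 6.04 with HOXD13, and the percentiles (93.7, 86.1 and 98.3 against 71.1, 86.2 and 95.02) overlapped. The promoter of Cyp26a1 was called in 2 lists, wild type HOXD13 replicate 2 at a fold enrichment of 2.32 and 542 HOXD13 at 2.53. A site 5.0 kb upstream of it, in an intron of the adjacent Cyp26c1, was called in 8 lists.
Cyp26a1 lead site, chr19:37602581-37602701: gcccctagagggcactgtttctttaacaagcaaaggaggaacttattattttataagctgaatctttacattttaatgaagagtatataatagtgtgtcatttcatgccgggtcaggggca

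The shared sites of the binding proteins lay outside both genes, as did those of Aldh1a3, Cyp26a1, Rara and Rarg. Crabp1 had 34 sites, and the 1 in all 9 lists was the promoter of Ireb2, 90.5 kb past the 3′ end of Crabp1. Its fold enrichment ran from 3.41 to 7.03 over the 9 libraries. Crabp2, which delivers retinoic acid to the receptors, had 32 sites with 2 in all 9 lists. One was the promoter of Prcc, 63.0 kb upstream, with fold enrichments of 2.78 to 10.9. The other was intergenic, 7.7 kb beyond the 3′ end of Crabp2 at chr3:87960499-87961204, and reached 9.62 in the 542 HOXD13 library against 3.01 to 6.15 in the wild type libraries. The promoters of Crabp1 and Crabp2 were called in 5 and 4 lists.
Crabp1 lead site, chr9:54863564-54863684: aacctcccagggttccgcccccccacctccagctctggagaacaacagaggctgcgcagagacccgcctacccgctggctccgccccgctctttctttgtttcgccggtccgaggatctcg
Crabp2 lead site, chr3:87885633-87885753: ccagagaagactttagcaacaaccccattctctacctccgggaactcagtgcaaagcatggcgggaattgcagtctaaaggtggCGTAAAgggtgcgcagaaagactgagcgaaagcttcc

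Rara, a broadly expressed receptor, had 46 sites and 4 of them in all 9 lists, but none of the 4 lay in Rara. The highest was the promoter of Top2a, a topoisomerase gene of dividing cells, at chr11:99023685-99024514 and 49.3 kb from the end of Rara. It had fold enrichments of 17.04, 13.9 and 10.6 with HOXA13 and 11.6, 22.8 and 14.5 with HOXD13, and it stood at the 98.9th percentile or above in every list, the highest median of all 18 sites. Next came the promoter of Cdc6, a replication licensing gene, 20.2 kb upstream of Rara, with 17.3, 13.99 and 5.99 with HOXA13 and 9.14, 13.3 and 4.57 with HOXD13. The window at its summit held the octamer CTCGTAAA. The third was intergenic at chr11:99055182-99056672, and the fourth lay in an exon of Cdc6, 5.8 kb upstream of Rara. At the intergenic site the percentiles with HOXA13 (97.5, 93.8 and 94.1) were above those with HOXD13 (38.7, 91.8 and 74.3). At least 1 promoter of Rara was called in 5 lists, 2 of them wild type, and reached a fold enrichment of 7.42 in the 542 HOXD13 library.

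Rarb, a receptor gene that retinoic acid induces through a repeat in its own promoter, had 57 sites, 29 of them intronic, and 4 in all 9 lists. Its annotated body is long, 388318 bp, since it includes a far upstream start. With the window set by the basic GENCODE transcripts alone, 38 sites and 3 of the 4 remained. The highest was intronic, 20.8 kb downstream of the nearest start at chr14:16554232-16555542. Libraries gave it a fold enrichment of 13.05, 12.6 and 7.01 with HOXA13, 7.22, 12.4 and 7.32 with HOXD13, 11.9 and 13.3 with HOXA13 in line 542 and 12.48 in the 542 HOXD13 library. It stood at the 94.3th percentile or above in each of the 9 lists, and the wild type summits lay within 33 bp of each other. An intergenic site 28.1 kb upstream of the annotated body, at chr14:16846501-16847804, was again ranked higher with HOXA13 (89.7, 88.2 and 95.4) than with HOXD13 (19.1, 78.3 and 81.0). The remaining shared sites were the promoter of Top2b and that of Rarb.
Rarb intron, chr14:16554694-16554814: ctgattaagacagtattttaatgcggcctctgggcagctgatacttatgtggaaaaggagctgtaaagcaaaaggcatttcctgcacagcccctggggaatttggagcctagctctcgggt
Rarb upstream, chr14:16847203-16847323: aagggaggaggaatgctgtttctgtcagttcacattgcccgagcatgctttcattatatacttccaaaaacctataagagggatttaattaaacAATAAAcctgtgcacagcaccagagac

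Rarg had 42 sites in a window shared with 13 other protein-coding genes, more than in any other of the windows. Its 1 site in all 9 lists was the promoter of Spryd3, 98.6 kb past the 3′ end of Rarg, with fold enrichments of 3.44 to 9.14. The Rarg promoter site at chr15:102257225-102258651 was called in 8 lists and missed in wild type HOXA13 replicate 2, at fold enrichments of 2.43 to 6.47. An intergenic site 13.3 kb downstream of the nearest start was called in the 3 wild type HOXA13 lists and in no wild type HOXD13 list.
Rarg lead site, chr15:102136265-102136385: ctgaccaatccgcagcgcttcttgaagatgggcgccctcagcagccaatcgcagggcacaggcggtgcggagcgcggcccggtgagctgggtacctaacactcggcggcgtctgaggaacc

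**Figure D2:**
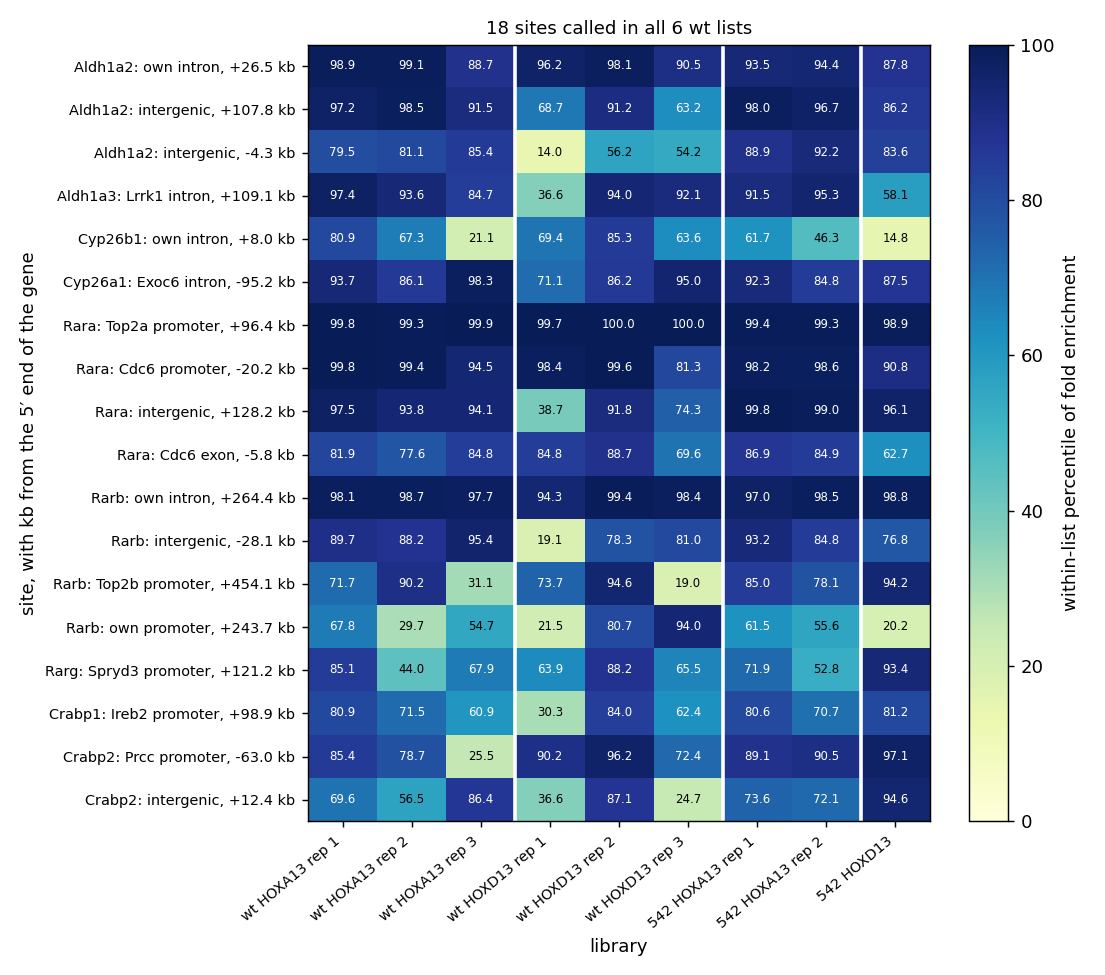
Within-list percentile of fold enrichment (colour and printed value) of the 18 sites called in all 6 wild type lists (rows, with the position and the distance in kb from the 5′ end of the annotated gene) in the 9 libraries (columns). The Top2a promoter near Rara and the introns of Rarb and Aldh1a2 keep high ranks throughout, while the Rarb promoter ranges from 20.2 to 94.0.

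Of the 17 sites at promoters of the 9 genes, 1 (5.88%) was in all 6 wild type lists, against 18.5% of promoter sites over the genome. A summit within 1 kb of a transcript start was called in all 6 wild type lists for 1 of the 9 genes, Rarb, against 20.01% of protein-coding genes. With 17 sites and 9 genes, no difference from either share could be read. Each of the 9 promoters was called in at least 1 list, while 34.10% of protein-coding genes had no promoter call in any list. The counts of lists were 9 for Rarb, 8 for Rarg, 5 for Rara and Crabp1, 4 for Aldh1a3 and Crabp2, 3 for Cyp26b1, 2 for Cyp26a1 and 1 for Aldh1a2. The Rarb promoter site, chr14:16574905-16576025, had fold enrichments of 4.99, 3.03 and 3.42 with HOXA13 and 3.21, 5.15 and 5.84 with HOXD13 in the wild type, 4.80 and 4.49 with HOXA13 in line 542 and 2.58 in the 542 HOXD13 library. It was the site of lowest median rank among the 18 (61.3), with main summits spread over 383 bp. Only 17 to 51 read ends covered those summits, so its rank rested on few reads.

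The sites were then searched for the direct repeat that retinoic acid receptors bind, spelled as any pair of the half-sites AGGTCA or GGGTCA or AGTTCA or GGTTCA on the same strand with 5 bases between them, on either strand. This search was chosen after seeing the data. It found the repeat in 3 of the 345 sites (0.870%), against 0.273% of all 187033 sites. All 3 lay in the windows of Rarb and Cyp26a1. Both are given above as targets of retinoic acid, so such a repeat was foreseeable and the share was not read as enrichment. Among RefSeq promoters of mouse GRCm38.p6 (250 bases before to 50 after a start), 0.0974% of 32851 held a repeat, among them those of Rarb and Cyp26a1. Of the 9 genes, 7 had a promoter in that table, and none of their 11 promoters held an octamer, against 2.30% of all. The repeats are shown 5′ to 3′ with half-sites in capitals, since 2 of the 3 lay in member promoters.
Rarb promoter, chr14:16575513-16575529, minus strand: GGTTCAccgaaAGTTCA
Cyp26a1 promoter, chr19:37697776-37697792, minus strand: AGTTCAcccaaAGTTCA
Cyp26a1 downstream, chr19:37789468-37789484, plus strand: GGGTCAggtaaAGTTCA

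The Rarb repeat lay 57 bp from the reference summit of a site in all 9 lists. The Cyp26a1 promoter repeat lay 74 bp from the summit of a site in 2 lists, and the other Cyp26a1 repeat, 91.8 kb downstream of the start, 111 bp from the summit of a site in 5 lists. A match describes letters in a window and does not show that a receptor was bound there.

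By position, 62 sites lay within 1 kb of a transcript start, 17 of them of a member. Another 172 lay in exons or introns, 74 of them of a member, and 111 lay between genes. Of the promoter sites, 7 (11.3%) were in all 6 wild type lists, compared with 6 (3.49%) of the gene body sites and 5 (4.505%) of the intergenic sites. Over all merged sites outside chromosome 2 these shares were 18.5%, 5.32% and 5.59%, so promoter sites had the highest share there too. Sites seen with HOXA13 and not HOXD13 in the wild type made up 9.68% of promoter sites, 26.7% of gene body sites and 23.4% of intergenic sites, against 14.8%, 25.5% and 25.6% over all sites. Sites seen with HOXD13 and not HOXA13 made up 22.6%, 12.2% and 15.3%, against 13.9%, 13.1% and 11.8%. In the windows, 20.7%, 22.4% and 16.1% of the wild type HOXA13 intervals had their main summit within 1 kb of a start, against 36.8%, 29.5% and 26.9% of the wild type HOXD13 intervals, and the groups did not overlap. Over the whole lists outside chromosome 2 the values were 17.9%, 20.6% and 16.5% against 28.2%, 22.0% and 20.9%, and these groups did not overlap either. With 3 libraries a group, an exact permutation test cannot go below 0.1, and the lists differed in length.

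**Figure D3:**
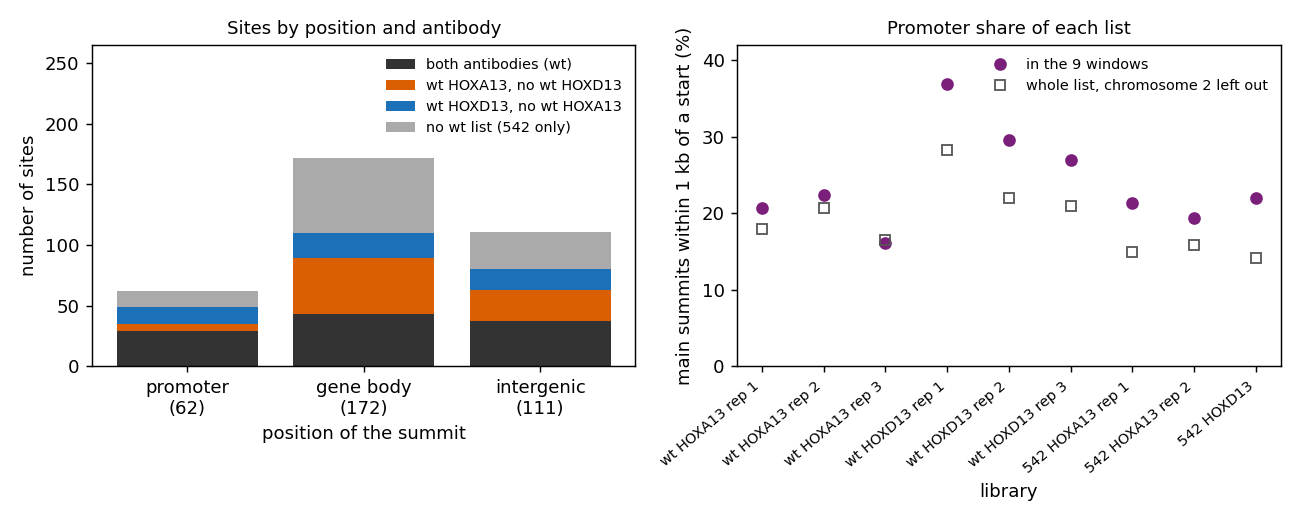
Left, number of sites in the 9 windows (y axis) by position of the reference summit (x axis) and by the wild type lists that called them (colour). Right, share of main summits within 1 kb of a transcript start (y axis, %) in each library (x axis), in the windows (filled) and over the whole list outside chromosome 2 (open); the 3 wild type HOXD13 libraries lie above the 3 wild type HOXA13 libraries in both.

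A strict rule was then applied to calls with 1 antibody. A call in all 3 wild type HOXA13 lists and no wild type HOXD13 list was found at 4 sites, near Aldh1a2, Cyp26b1, Rarb and Rarg, against 0.899% of all sites. All of them were also called in both 542 HOXA13 lists and in the 542 HOXD13 list. A call in all 3 wild type HOXD13 lists and no wild type HOXA13 list was found at none, against 0.0187%. Where both antibodies called a site in all lists, the percentiles did not overlap between antibodies at 4 of the 18 sites (22.2%), each higher with HOXA13, against 12.54% of such sites in the genome. These were the upstream and downstream sites of Aldh1a2 and the intergenic sites of Rara and Rarb. None was lower with HOXA13, against 2.954%. With percentiles of −log10 p in place of fold enrichment, 2 of the 4 stayed apart, the Aldh1a2 upstream and the Rarb intergenic site. The fold enrichments themselves also stayed apart at these, but overlapped at the Aldh1a2 downstream and the Rara intergenic site. A percentile depends on the other intervals of its list, and the lists differed in length.

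The number of intervals in each window was next compared between antibodies as intervals per 10000 of the list, by exact two-sided permutation of the libraries for each of 20095 protein-coding genes. Rara had fewer with HOXA13, at 1.84, 1.88 and 2.27, than with HOXD13, at 3.76, 3.12 and 2.66. The means were 1.99 ± 0.236 and 3.18 ± 0.552 (SD, n = 3 each), with exact permutation p = 0.1, the smallest possible, and 0.960 after Benjamini-Hochberg adjustment over all genes. Rarb went the other way, with 3.22, 3.58 and 4.53 with HOXA13 and 1.67, 2.73 and 2.39 with HOXD13. Its means were 3.78 ± 0.678 and 2.27 ± 0.543 (SD, n = 3 each), with exact permutation p = 0.1 and adjusted 0.960. The narrower Rarb window of the basic transcripts was not tried for this share. Groups without overlap were thus found at 1 of 9 genes higher with HOXA13, against 2.43% of genes, and 1 of 9 lower, against 7.99%. For Aldh1a2 the shares were 1.61, 2.05 and 1.74 with HOXA13 and 2.09, 1.56 and 1.86 with HOXD13. The difference between the means, −0.0376, was less than the spread between libraries (SD of 0.223 and 0.264, exact permutation p = 0.9, n = 3 each). With intervals of fold enrichment of at least 5 alone, Aldh1a2 was higher with HOXA13 by 0.802 (exact permutation p = 0.1), while Rara and Rarb overlapped (exact permutation p = 0.4 for each). With −log10 q of at least 5 the Aldh1a2 difference was −0.505 instead (exact permutation p = 0.2). It was 0 with the 20000 intervals of highest −log10 p in each list. In the lists as deposited the other 6 genes overlapped as well, and none of the 9 genes passed the adjusted test, where no unadjusted p could be under 0.05.

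**Figure D4:**
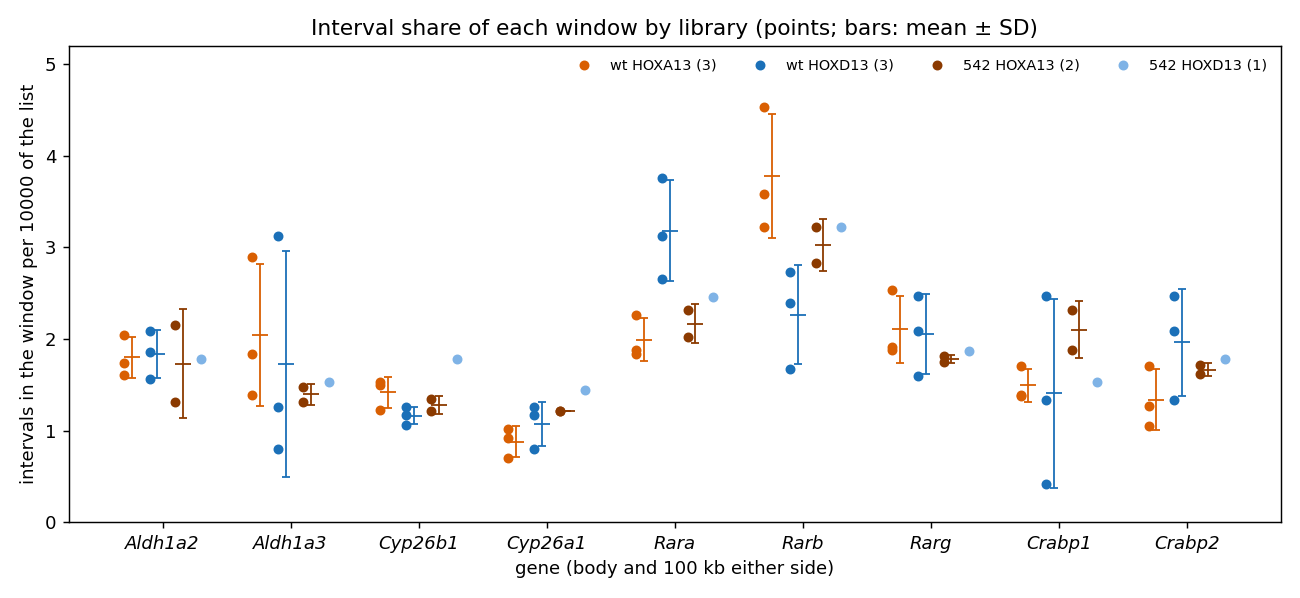
Intervals in the window of each gene per 10000 intervals of the list (y axis), for the 9 genes (x axis); points are libraries coloured by group, bars are mean ± SD where a group has more than 1 library. Rara and Rarb are the genes at which the wild type HOXA13 and HOXD13 points do not overlap, in opposite directions.

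By length, the windows of Rara and Rarg were densest in wild type intervals, with 56.0 and 55.4 per Mb as the mean of the 6 lists, at the 94.0th and 93.6th percentile of protein-coding genes. Aldh1a3 (50.0), Crabp2 (45.6) and Crabp1 (44.0) followed, and then Aldh1a2 (35.7), Cyp26b1 (33.7), Rarb (30.9) and Cyp26a1 (27.0), which stood between the 46.1th and the 65.96th percentile. The order differed between lists. The percentile of Rara ran from 78.8 to 97.8 over the wild type lists, that of Rarg from 77.1 to 98.4, and that of Aldh1a3 from 41.1 to 98.5.

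The 542 line was compared with the wild type for HOXA13 only, with the same 3 wild type libraries as in the comparison of antibodies. The share of intervals was higher in the 2 mutant than in the 3 wild type libraries for Crabp1 (2.32 and 1.88 against 1.38, 1.71 and 1.39; exact permutation p = 0.1) and for Cyp26a1 (1.21 and 1.21 against 0.920, 1.02 and 0.697; exact permutation p = 0.2). It was lower for Rarg (1.82 and 1.75 against 2.53, 1.88 and 1.92; exact permutation p = 0.4). The adjusted value was 0.939 for each of them. These were 2 of 9 genes higher, against 8.10% of all genes, and 1 of 9 lower, against 14.2%. Aldh1a2 had 1.31 and 2.15 against 1.61, 2.05 and 1.74, which overlapped (exact permutation p = 1). Sites called in both 542 HOXA13 lists and no wild type HOXA13 list numbered 9 (2.61%), against 4.17%. The reverse, in all 3 wild type HOXA13 lists and neither 542 HOXA13 list, was found at 1 site, an intron of Rarb at chr14:16483647-16484357, against 0.300%. Among the 18 shared sites, the 542 HOXA13 percentiles were above all wild type HOXA13 percentiles at 4 (22.2%), against 17.52%, and below them at none, against 10.31%. The 4 were the upstream site of Aldh1a2, the intergenic site and the Cdc6 exon near Rara, and the Prcc promoter near Crabp2. At the Cdc6 exon and the Prcc promoter the main summits of the wild type lists lay up to 1041 and 554 bp apart, so the percentiles compared there belong in part to different summits.

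The octamers were sought in 50 bp centred on each main summit. Over the wild type lists, 1.08% to 5.26% of the main summits in the windows held one, which was 1 to 4 summits a list, and 2.183% to 3.97% over the whole lists outside chromosome 2. Windows 1 kb to either side held one at 0.485% to 0.572% of summits over the whole lists. In the 3 lists of line 542 the shares were 1.89% to 3.23% in the windows and 3.71% to 5.80% over the lists. Of the 345 sites, 9 had an octamer in these 50 bp at the reference summit, among them none of the 18 shared sites. With 38 to 205 summits a list in the windows, no difference from the whole lists could be read.

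For the pathway beyond these genes, 11 further genes (Rdh10, Dhrs3, Aldh1a1, Cyp26c1, Rxra, Rxrb, Rxrg, Rbp4, Stra6, Ncor1 and Nrip1) were taken with the same windows. They cover the supply and transport of retinoids, the RXR partners and cofactors of the receptors. Their windows held 318 sites, of which 22 (6.92%) were in all 6 wild type lists. Of these sites, 27 around Cyp26c1 also lay in the Cyp26a1 window, with 1 of the 18 shared sites among them, and the 33 of Rxra lay on chromosome 2, which the background leaves out. Without both, 18 of 258 (6.98%) were in all 6 wild type lists. Dhrs3, a reductase that returns retinaldehyde to retinol, had 5 of them, the most of the 11, and Aldh1a1 and Rxrg had none. The promoter of Dhrs3 was called in all 9 lists, and that of Aldh1a1 in no list.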

How the data were processed

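Per the labels and the study's methods, the authors trimmed the CUT&RUN reads and aligned them to mm10 (for line 542, to a mutant genome with a changed chromosome 2). The authors kept mapping quality of at least 30. Peaks were called in each library with MACS2 at q below 0.05 and no control, with 200 bp centred on each read end. The study lists a step that removes duplicates, while its printed CUT&RUN commands mark duplicates and keep them, so their removal is not certain. The deposited narrowPeak lists give a summit, a fold enrichment (a ratio to local background), −log10 p-value and −log10 q-value, and a browser score that was not used. Replicates were not pooled.

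Rows sharing an interval were joined, and the summit with the highest −log10 p was the main summit. Intervals of the 9 lists with 1 bp in common formed sites. The reference summit came from the list with the highest percentile of −log10 p. Positions followed GENCODE M21 (promoter: within 1000 bp of a transcript start). Pileups solved from fold enrichment and −log10 p were whole within 0.001 for at least 99.96% of summits. They are reads without molecular identifiers.

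Shares were compared by exact permutation with Benjamini-Hochberg adjustment over 20095 protein-coding genes, chromosome 2 left out. By the study's account each replicate was its own pool of embryos. The 9 genes and the lists were chosen with earlier results of these data known. Named were each gene's promoter sites and at most 5 sites in all 6 wild type lists, by median percentile, with sequences of the lead sites that overlap no exon and of the other shared Aldh1a2 and Rarb sites, the latter chosen after their values were seen. Some genes of the wider pathway list and 1 lead site sequence are not reported here. Scripts used Python 3.11.15, pandas 2.3.3 and pysam 0.24.0 and were tested on simulated data. Alternatives were stricter lists, other windows, other units, a replicate block, other motif windows and leaving out each library.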

Additional observations from a re-analysis of the deposited data

How the results depend on the processing

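The 18 sites in all 6 wild type lists became 3 with fold enrichment of at least 5, 8 with −log10 q of at least 5, 9 with the 20000 intervals of highest −log10 p in each list, 11 with windows of 50 kb and 35 with windows of 200 kb. Joining main summits within 150 or 300 bp gave 13 and 17, and leaving out a replicate 18 to 23. Aldh1a2 intron, Top2a promoter and Rarb intron were the 3 sites left at a fold enrichment of 5. The 2 genes without overlap between HOXA13 and HOXD13 became 1 with windows of 200 kb or with every summit counted, 0 with the number of intervals not divided by list length, and 2 to 4 with a replicate left out (4 without wild type HOXD13 replicate 2 or 3). The 3 genes between line 542 and wild type became 1 with 20000 intervals or with every summit, 0 at a fold enrichment of 5, and 4 to 9 with a replicate left out (6 without wild type HOXA13 replicate 3, 9 without 542 replicate 2). Sites whose percentiles did not overlap numbered 4 in each comparison, and with percentiles of −log10 p 2 between antibodies and 5 between line 542 and wild type, an alternative chosen after seeing the data. With a replicate left out they were 4 to 6 and 5 to 8, with 7 without wild type HOXA13 replicate 2 and 8 without replicate 3. Leaving out a library can only keep or raise each of these counts of sites and genes. A rise there was thus fixed in advance and carries no weight. Rara stayed lower and Rarb higher with HOXA13 in every setting tried, but at a fold enrichment of 5 both overlapped (exact permutation p = 0.4 each) and the count of 2 genes there was made of others. Rara also overlapped with every summit, Rarb with windows of 200 kb, and both undivided.

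Aldh1a2, HOXA13 minus HOXD13, was −0.038 intervals per 10000 and turned to 0.80 at a fold enrichment of 5 (exact permutation p = 0.1, the smallest possible), 0.43 with windows of 200 kb, 0.21 with every summit and 4.0 undivided, and ran from −0.18 to 0.088 with a replicate left out. It was −0.505 with −log10 q of at least 5, 0 with 20000 intervals and −0.097 with windows of 50 kb. Line 542 minus wild type was −0.068 and turned to 0.17 with 20000 intervals and 2.5 undivided, and ran from −0.49 to 0.35 with a replicate left out. For Crabp1 it turned from 0.61 to −0.083 with 20000 intervals, and for Rarg from −0.33 to 0.52 at a fold enrichment of 5 and 0.83 undivided. The mean octamer share over the wild type lists, 2.38%, moved to 4.002% at a fold enrichment of 5, 4.42% with 20000 intervals, 4.19% in 100 bp and 12.4% with the hexamers, and ran from 1.801% to 2.64% with a replicate left out. The causes were not tested.

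With the replicate number as a block, 5 genes had all pairs differing one way between antibodies and 7 between line 542 and wild type. The smallest possible p by exact sign flips was 0.25 and 0.5, which is also how often random signs would all agree. No share over all genes stands beside these counts, so they were not read as differences. Same-numbered wild type libraries correlated at 0.085, 0.15 and 0.34 in their deviations from the group means, below 0.1 for 1 pair, and HOXA13 replicate 1 correlated best with HOXD13 replicate 2, so the numbers were not read as pairing. The value of 0.34 was that of replicate 3. Each replicate 3 library correlated at −0.27 to −0.14 with replicates 1 and 2 of the other antibody. The study lists longer reads for both replicate 3 libraries than for wild type replicates 1 and 2, and a batch was not tested. The shortest lists, wild type HOXD13 replicates 1 and 3, came from the libraries of lowest depth. Of these, replicate 1 was the deeper (38500000 against 36900000 read ends) but had fewer intervals (23939 against 37589). Whether depth limited the calls was not tested, and 2 or 3 libraries a group cannot reach p of 0.05.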
